A study of Mus musculus with 6 samples.

Results

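The TRIM genes encode tripartite-motif proteins, which are built from a RING finger, B-box zinc fingers and a coiled coil, usually followed by a C-terminal domain that binds the target. Members were all genes whose name on the array began with Trim followed by a digit, and control spots were left out. The array carried 51 such genes among 27962 genes, on 99 probes of 60 bases. Each gene was represented by its brightest probe, the one with the highest mean log2 signal over the 6 arrays. Of the 51 genes, 36 were measured well enough to be tested, meaning that the scanner software marked the brightest probe as well above background on at least 3 of the 6 arrays. The 9 interferon-linked members were set against the other 42, and the interferon-linked list was drawn from mouse and human literature with earlier results of these data known.

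Most TRIM proteins are E3 ubiquitin ligases: the RING finger brings in a ubiquitin-loaded E2 enzyme and the C-terminal domain selects the protein to be tagged. A subset is induced by type I interferon and acts in antiviral defence, some as sensors or restriction factors and some as regulators of the pathways that make interferon. IRF7 is a transcription factor that switches on type I interferon genes, and the interferons then act through STAT and IRF9 complexes on response elements in the promoters of their target genes.

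The study compared 3 arrays of 4T1.2 cells carrying IRF7 with 3 arrays of 4T1.2 cells carrying the base vector. The 4T1.2 line is a mouse mammary carcinoma line on the BALB/c background, and no stimulus is named in the labels. Both groups were made with the pMSCV retroviral vector, selected with puromycin, cloned from single cells and then used as a pool of several clones, so vector content and the clones that entered each pool cannot be told apart. The design text speaks of 3 independent experiments, so the p-values measure the spread between experiments on those pools and not between transductions. RNA of whole cultures was labelled with Cy3 and hybridised to single-colour Agilent arrays, and fewer cells of a type and less RNA per cell cannot be told apart in such samples.

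Spot signals before scaling ran somewhat higher on the IRF7 arrays. On IRF7 arrays the 75th percentile of spot signals ran from 1299 to 1467, and on base-vector arrays from 1153 to 1298, and 35 to 37 TRIM genes per array were well above background in each group. All 3 IRF7 arrays and base-vector replicate 1 shared slide 1, while base-vector replicates 2 and 3 were on slide 2. The slides also differed in scan date, so slide and scan cannot be told apart. Irf7 itself had processed signals of 4486, 4963 and 5012 in IRF7 cells, against 246, 195 and 210.5 in base-vector cells, a log2 change of 4.28 ± 0.05 (SE). Of the 5 epithelial markers, Krt8, Krt18, Cdh1 and Tacstd1 (Epcam) were well above background on every array and Krt19 on none. The 7 myeloid markers summed to 0.544 to 0.666 of the 75th percentile in IRF7 cells and 0.535 to 0.591 in base-vector cells, and Itgam and Fcgr1 were well above background on no array. The 6 lymphocyte markers summed to 0.219 to 0.266 in IRF7 cells and 0.207 to 0.272 in base-vector cells, with Ms4a1, Cd79a and Cd3d well above background on no array. The 7 fibroblast and endothelial markers summed to 2.56 to 2.67 in IRF7 cells and 5.65 to 5.79 in base-vector cells, with Pecam1, Kdr and Col1a1 well above background on no array. That sum mostly followed Pdgfra, which changed by −1.21 ± 0.03 (SE). Dcn, well above background on no IRF7 array, was at least 3.11-fold lower in IRF7 cells, while Cdh5 was higher by 1.05 ± 0.04. The part of these differences in the results below was not tested.

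The interferon-linked TRIM genes were higher in IRF7 cells almost throughout, while the other members moved both ways, with a smaller median change. Changes are differences of log2 processed signal after each array was scaled to its 75th percentile, and a gene is said to rise or fall where limma's Benjamini-Hochberg adjusted p over all 15541 tested genes was under 0.05. Of the 36 tested TRIM genes, 26 (72.2%) passed the threshold, against 60.8% of all tested genes, so a call on its own was common on these arrays. In all 14 TRIM genes rose and 12 fell, against 31.7% and 29.1% of all tested genes. Among the interferon-linked members 8 of 9 rose (88.9%) and none fell, with a median log2 change of 0.99. Among the other members 27 were tested, of which 6 rose (22.2%), 12 fell (44.4%) and 9 did not pass, with a median log2 change of −0.08. The median over all tested genes was 0.03. A rise of at least 2-fold was seen for 3 interferon-linked members and no other member, against 3.33% of all tested genes, and no member fell by 2-fold, against 2.56% of all tested genes. IRF7 and base-vector arrays did not overlap for 8 of the 9 interferon-linked genes and for 18 of the 27 others, against 67.7% of all tested genes. Without scaling between arrays 14 TRIM genes rose and 4 fell. In that setting 52.7% of all tested genes passed, and 79.1% of those calls were rises, so the tilt was shared by all genes. Within slide 1 base-vector replicate 1 is the lone base-vector array and is assumed to vary like the IRF7 arrays. There the interferon-linked median was 0.97 and that of the other members −0.13, beside 0.003 over all tested genes.

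**Figure D1:**
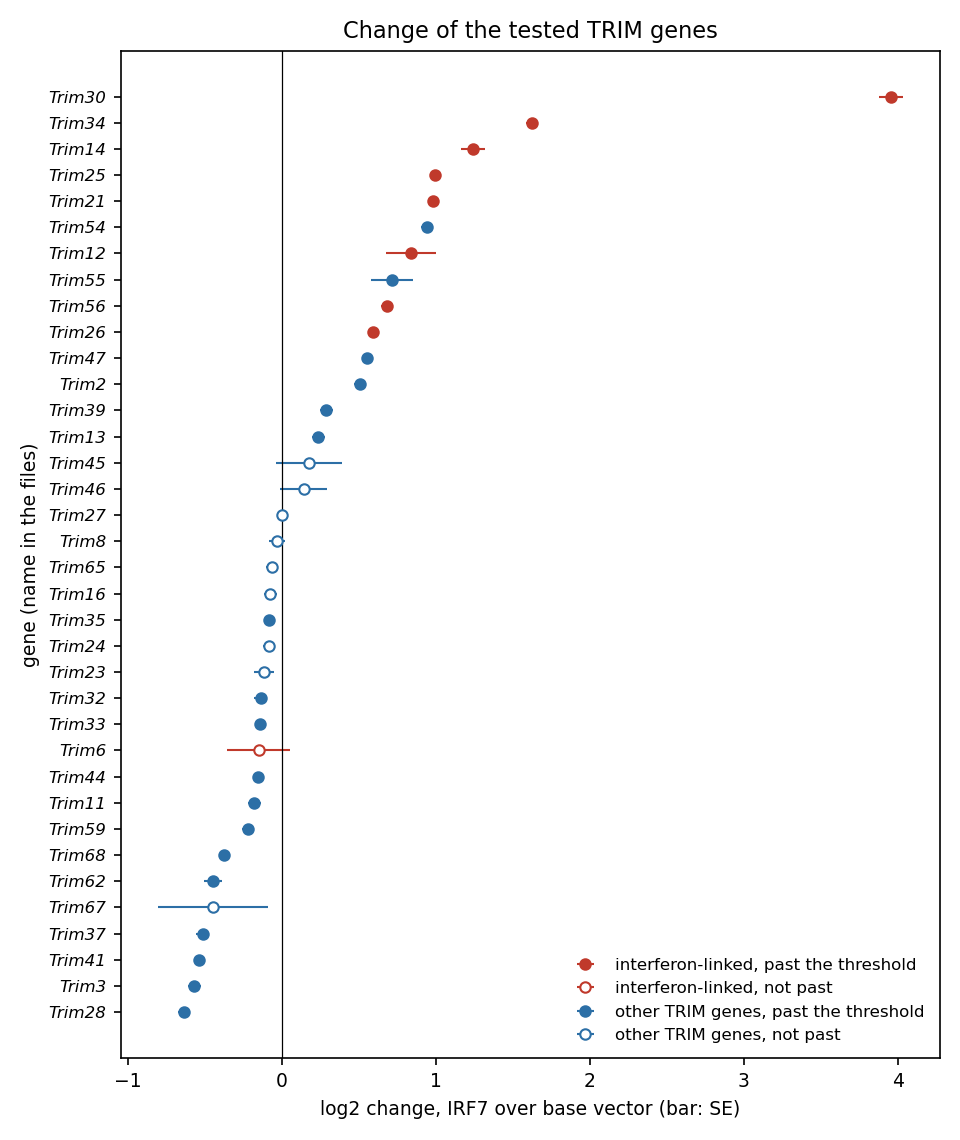
Log2 change of each of the 36 tested TRIM genes, IRF7 over base vector, on the horizontal axis (points, bars are SE), ordered by size, with interferon-linked genes in red, other members in blue and filled symbols for genes past the threshold. The interferon-linked genes other than Trim6 lie between 0.59 and 3.96, and the other members between −0.64 and 0.94.

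Trim30 was the interferon-linked member with the largest change. Trim30 (Trim30a in current nomenclature) is a mouse PRY-SPRY protein reported to restrain NF-kB signalling downstream of Toll-like receptors. Its brightest probe gave processed signals of 3307, 3014 and 3299 in IRF7 cells, against 197, 162 and 182 in base-vector cells. Every IRF7 array lay far above every base-vector array, a log2 change of 3.96 ± 0.08 (SE) or 15.5-fold, with an adjusted p of 1.36e-06 by limma. A second Trim30 probe changed by 3.83 ± 0.05.

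Trim34 and Trim12 belong to the mouse gene cluster that corresponds to the one with TRIM5 in humans, the restriction factor that binds retroviral capsids. Trim34 gave signals of 239.8, 261 and 272 in IRF7 cells, against 80.0, 66.0 and 72.6 in base-vector cells. The groups were well apart, with a log2 change of 1.62 ± 0.04 (SE) and an adjusted p of 2.92e-06 by limma. Its other 2 probes changed by 1.00 ± 0.11 and 1.70 ± 0.07. The 3 Trim34 probes were placed at 2 stretches of the cluster and 1 of them bridged both, so the copies Trim34a and Trim34b are not separated here. Trim12 gave 227, 185 and 216 in IRF7 cells, against 132, 94.5 and 83.3 in base-vector cells. The groups did not overlap, though base-vector replicate 1 stood nearer to the IRF7 arrays than the other two did. Its log2 change was 0.84 ± 0.16 (SE), with an adjusted p of 0.00574 by limma. With the slide as a block the Trim12 change was 0.57 and no longer passed (adjusted p 0.0507), and within slide 1 its adjusted p was 0.0653 by limma.

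Trim14 and Trim25 act in the RIG-I pathway, Trim14 as a mitochondrial adaptor beside MAVS and Trim25 as the ligase known for ubiquitinating RIG-I. Trim14 gave signals of 394, 475 and 439 in IRF7 cells, against 178, 162 and 141 in base-vector cells. The groups did not overlap, and the log2 change was 1.24 ± 0.08 (SE) with an adjusted p of 7.22e-05 by limma. Trim25 gave 22499, 24290.4 and 25846 in IRF7 cells, against 11574, 9894 and 10270.4 in base-vector cells. No base-vector array came near an IRF7 array, and the log2 change was 1.00 ± 0.03 (SE), or 1.99-fold, with an adjusted p of 4.80e-06 by limma. A second Trim25 probe changed by 1.26 ± 0.07.

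Trim21, Trim56 and Trim26 made up the rest of the rises. Trim21 is a cytosolic antibody receptor that sends antibody-coated virus to the proteasome, Trim56 is linked to STING signalling, and Trim26 is reported to target IRF3. Trim21 gave 1438, 1528 and 1573 in IRF7 cells, against 691, 636 and 668 in base-vector cells, a log2 change of 0.99 ± 0.04 (SE) with an adjusted p of 9.67e-06 by limma. Trim56 gave 5218, 5389 and 5913 in IRF7 cells, against 3311, 2761 and 2897 in base-vector cells, a log2 change of 0.68 ± 0.04 with an adjusted p of 3.94e-05 by limma. Trim26 gave 7076, 7589 and 7664 in IRF7 cells, against 4632, 4011 and 4241 in base-vector cells, a log2 change of 0.59 ± 0.03 with an adjusted p of 3.86e-05 by limma. In all 3 genes the groups were separate. The further Trim26 probes changed by 0.47 ± 0.04, which passed, and by 0.33 ± 0.17, which did not (adjusted p 0.141 by limma).

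**Figure D2:**
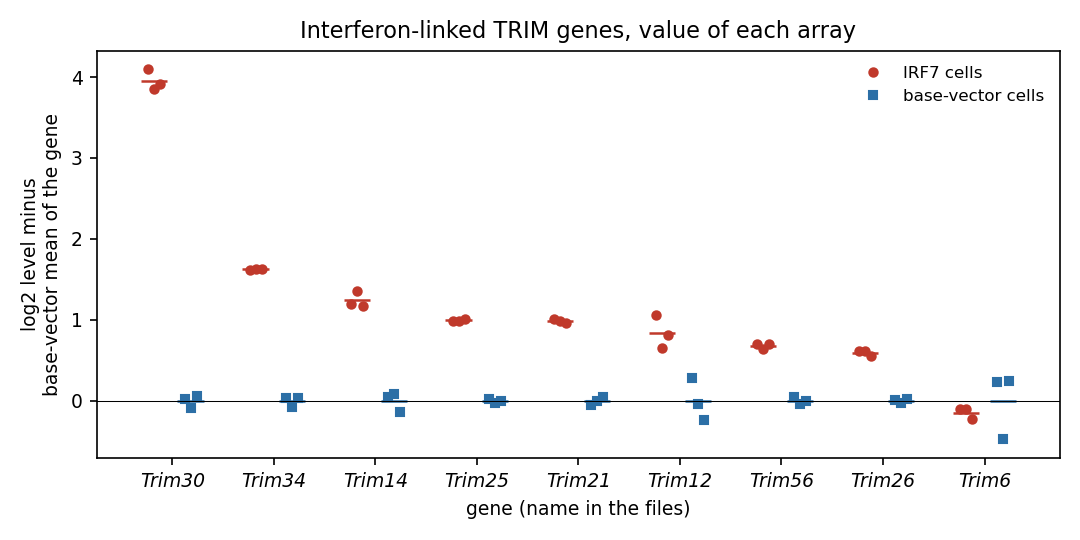
Log2 level of each array minus the base-vector mean of the gene (vertical axis) for the 9 interferon-linked TRIM genes, with red circles for the 3 IRF7 arrays, blue squares for the 3 base-vector arrays and short lines for group means. The groups are apart for every gene except Trim6, where base-vector replicate 2 lies below the other arrays.

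Trim6 is the interferon-linked member that did not pass, and its probes gave different answers. Trim6 makes unanchored ubiquitin chains that activate the kinase IKK epsilon in interferon signalling. Its brightest probe gave 241, 259.9 and 250.2 in IRF7 cells, against 305, 166 and 278 in base-vector cells. The IRF7 arrays lay inside the base-vector range, and the log2 change was −0.15 ± 0.20 (SE) with an adjusted p of 0.564 by limma. That value rested on base-vector replicate 2: without it the change was −0.39 (adjusted p 0.00323), and within slide 1 it was −0.38 (adjusted p 0.0203 by limma). The other 3 tested Trim6 probes, which lie further downstream, rose in limma by 0.64 ± 0.04, 0.87 ± 0.13 and 0.94 ± 0.15. The 0.87 and 0.94 probes were well above background on every IRF7 array and on no base-vector array. They passed the filter only through the group where they are high, so their tests are no separate support for a rise. They bound the rise at no less than 1.45-fold and 1.56-fold. The 0.64 probe gave 175, 199 and 206 in IRF7 cells, against 114, 107 and 102 in base-vector cells. Averaged over its kept probes Trim6 rose by 0.58 (adjusted p 0.000309 by limma). That mean includes the 0.87 and 0.94 probes and shares their limit.

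A further Trim6 probe overlaps the brightest one, and the pair is shown because nearly the same target sequence gave different readings. Capitals mark the 48 bases that the probes share. They lie on the plus strand of chromosome 7 at chr7:100284537-100284596 and chr7:100284549-100284608 in mm7, the build of the files.
Trim6 brightest probe: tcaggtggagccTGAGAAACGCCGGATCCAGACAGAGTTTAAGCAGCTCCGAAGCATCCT
Trim6 overlapping probe: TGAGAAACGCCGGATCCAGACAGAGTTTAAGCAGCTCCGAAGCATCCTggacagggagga
The overlapping probe gave 31.4, 24.7 and 21.9 in IRF7 cells, against 15.3, 15.6 and 88.4 in base-vector cells. It was well above background on base-vector replicate 3 alone, so it was not tested. Which of the Trim6 probes reads Trim6 was not tested, as no transcript sequences were used here.

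The 250 bases before and 50 bases after each RefSeq transcription start (assembly GRCm38.p6) were searched for the core of the interferon-stimulated response element, which is GAAA, then NN, then GAAA without a gap, on both strands, with overlapping matches counted. Promoter sequences were matched for 38 of the 51 members, 8 of them interferon-linked and 30 not, and Trim14 was not among them. A gene was counted if any of its listed starts held this core. It was present in 5 of the 8 interferon-linked genes (62.5%) and in 1 of the 30 others (3.33%), against 3.99% of all 27025 genes with a promoter in the table. The 1 other gene was Trim2, where only a single one of several listed starts held the core. Of the 7 interferon-linked genes that both rose and had a promoter, 5 held it. A second motif, TTCNNNGAA, the palindromic STAT site, was found in none of the 8 interferon-linked genes and in 4 of the 30 others (13.3%), against 9.55% of all genes. A match describes the letters and not a bound site.

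The windows that hold the response element core are shown because most interferon-linked members with a promoter share it, in 30 bases each, with the motif in capitals. They are given in the direction of the gene, so the run TTTC followed by any 2 bases and TTTC is the motif on the other strand. Coordinates are GRCm38.p6, and positions count the start base of the promoter table as 0.
Trim30a, chr7:104446104-104446133, minus strand: ttgtttttagTTTCTTTTTCtcagttcctg
Trim30a, second start, chr7:104465210-104465239, minus strand: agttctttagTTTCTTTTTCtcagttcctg
Trim34a, chr7:104244457-104244486, plus strand: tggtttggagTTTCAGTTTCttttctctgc
Trim12a, chr7:104315466-104315495, minus strand: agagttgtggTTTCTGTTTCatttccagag
Trim21, chr7:102565447-102565476, minus strand: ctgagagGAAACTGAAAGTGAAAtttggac
Trim26, chr17:36836979-36837008, plus strand: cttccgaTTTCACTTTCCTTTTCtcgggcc
Trim2, chr3:84212791-84212820, minus strand: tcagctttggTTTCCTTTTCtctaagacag
In Trim21 and Trim26 a pair of matches overlaps, giving one longer run. The motif began at position 2 or −36 in Trim30a, according to the start site, at 10 in Trim34a and Trim12a, at 13 in Trim21 and at −160 in Trim26. In Trim2 it began at 28 from the single start that held it. No match was found in the windows of Trim25, Trim56 and Trim6, of which Trim25 and Trim56 rose.

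Trim30, Trim34, Trim12 and Trim6 lie side by side on chromosome 7, where the brightest probes span 184.1 kb (chr7:100284537-100468622, mm7). Chromosome 7 as a whole was low in IRF7 cells: of 1157 tested genes on it with no Trim name, 772 fell and 81 rose, with a median log2 change of −0.38. The interferon-linked genes there ran the other way, 4 of 5 rising with a median of 0.99, and all 4 interferon-linked genes on other chromosomes rose. All 3 tested other members on chromosome 7 fell, with a median of −0.57. Within 5 Mb of the cluster's centre 101 genes with no Trim name were tested, of which 14 rose, 48 fell and 39 did not pass, with a median of −0.14. The nearest tested genes before the cluster were Olfr635, Hbb-b1 and Olfr611, at 0.50, 0.38 and 0.51, and none passed. After it came AI451617 and LOC667836, which rose by 3.41 ± 0.30 and 0.34 ± 0.04 (SE), and Olfr656 at −0.10, which did not pass. Inside it an unnamed transcript (TC1485374) rose by 1.76 ± 0.05 (SE). Whether the low values of chromosome 7 bear on its TRIM genes was not tested.

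**Figure D3:**
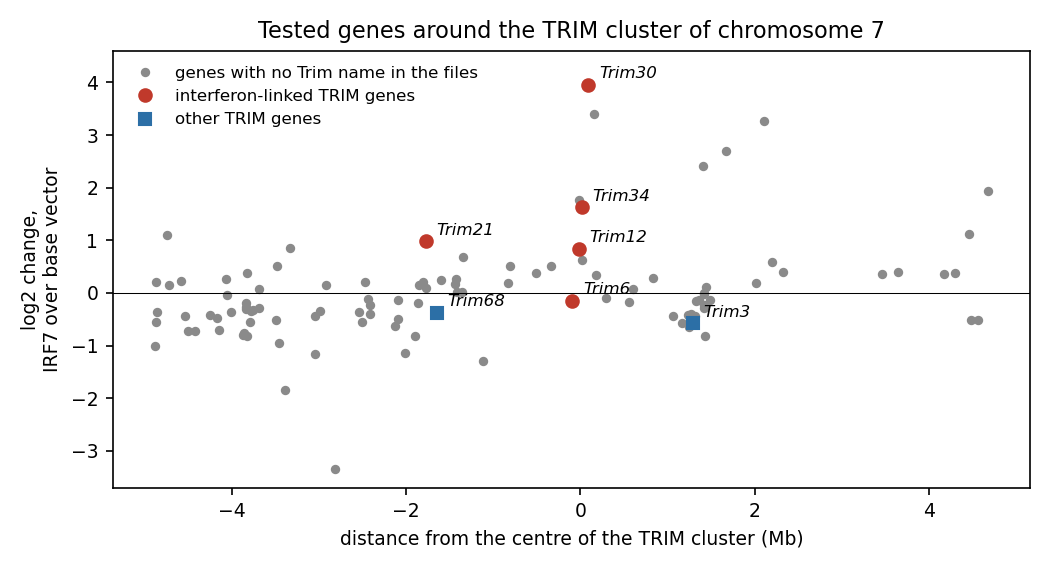
Log2 change, IRF7 over base vector (vertical axis), of tested genes against their distance in Mb from the centre of the chromosome 7 TRIM cluster, with interferon-linked TRIM genes as red circles, other TRIM genes as blue squares and genes with no Trim name in the files in grey. Trim30, Trim34 and Trim12 stand at 3.96, 1.62 and 0.84 near the centre, while Trim68 and Trim3 to either side are at −0.37 and −0.57.

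Further genes of the family carry older names on the array and so were not members. AI451617 (now Trim30d), next to Trim30, gave signals of 1474, 1632 and 1749 in IRF7 cells, against 233, 94.1 and 106 in base-vector cells. The groups were far apart, with a log2 change of 3.41 ± 0.30 (SE) and an adjusted p of 0.000239 by limma. 9230105E10Rik (now Trim12c), inside the cluster, gave 497, 654 and 627 in IRF7 cells, against 326, 330.3 and 339.9 in base-vector cells, and rose by 0.63 ± 0.09 (adjusted p 0.00198 by limma). Rnf36 (now Trim69), on chromosome 2, rose by 0.76 ± 0.09 (adjusted p 0.000712 by limma). The probes of Trim30b and Trim80 were well above background on no array. The promoters of Trim30d and Trim12c hold the same motif runs as Trim30a and Trim12a.
Trim30d, chr7:104507871-104507900, minus strand: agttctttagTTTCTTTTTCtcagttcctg
Trim12c, chr7:104353359-104353388, minus strand: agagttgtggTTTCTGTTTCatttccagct
Close copies such as these can share sequence with each other's probes, and which copy gave each signal was not tested. The Trim30 probe, shown as the one behind the largest change, was placed over chr7:100468045-100468622 on the minus strand (mm7). That stretch spans 578 bases, longer than the 60 bases of the probe.
Trim30 brightest probe: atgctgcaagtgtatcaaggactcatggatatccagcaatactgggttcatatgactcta

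Among the other members, 8 passed with a log2 change of at least 0.5, 4 in each direction. That was 29.6% of the 27 tested, against 19.97% of all tested genes at that size, and the difference was not tested. The muscle RING finger genes gave a pair of rises. Trim54 and Trim55 encode ligases of the muscle sarcomere and microtubules, and the third gene of that class, Trim63, was well above background on no array. Trim54 gave signals of 1436, 1472 and 1533 in IRF7 cells, against 734, 622 and 657 in base-vector cells, a log2 change of 0.94 ± 0.04 (SE) with an adjusted p of 1.27e-05 by limma. Its groups were clearly separate. Trim55 gave 338, 288 and 266 in IRF7 cells, against 162, 149.6 and 159 in base-vector cells, a change of 0.72 ± 0.13 with an adjusted p of 0.00505 by limma. The Trim55 groups did not overlap, though IRF7 replicate 1 stood above the other IRF7 arrays, and within slide 1 its change of 0.78 had an adjusted p of 0.0563 by limma.

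Trim47 and Trim2 also rose. Trim47, a PRY-SPRY ligase, gave 23988, 25841 and 26433 in IRF7 cells, against 15934, 14026 and 15168 in base-vector cells, a log2 change of 0.56 ± 0.03 (SE) with an adjusted p of 6.45e-05 by limma. Trim2, an NHL-domain ligase known for binding neurofilament light chain, gave 2570.3, 2629.7 and 2908 in IRF7 cells, against 1808, 1518 and 1635 in base-vector cells, a change of 0.51 ± 0.04 with an adjusted p of 0.000143 by limma. In both genes each IRF7 array exceeded each base-vector array, and a second Trim2 probe changed by 0.51 ± 0.04 as well.

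Trim28 fell furthest among the tested members. Trim28 is the corepressor that KRAB zinc-finger proteins recruit to silence chromatin. It gave 13900.5, 15609 and 17086 in IRF7 cells, against 22772, 19630.0 and 20497 in base-vector cells, a log2 change of −0.64 ± 0.04 (SE) with an adjusted p of 6.54e-05 by limma. Trim3, an NHL-domain protein of vesicle trafficking, gave 1645, 1911 and 2028 in IRF7 cells, against 2589.9, 2248 and 2343 in base-vector cells, a change of −0.57 ± 0.04 with an adjusted p of 0.000125 by limma. Both lie on chromosome 7, and in both the groups were separate. A second Trim3 probe changed by −0.73 ± 0.04.

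Trim41 and Trim37 fell as well, and both lie on chromosome 11, where 1321 tested genes with no Trim name had a median log2 change of −0.15. Of those 1321 genes 609 fell and 247 rose. Of the 7 tested members on that chromosome 3 fell and 2 rose, the latter being Trim25 and Trim47. Trim41 is a PRY-SPRY ligase that binds protein kinase C, and Trim37, whose human counterpart is mutated in mulibrey nanism, acts at peroxisomes and centrioles. Trim41 gave 3799, 4313 and 4438 in IRF7 cells, against 5565, 4941 and 5294 in base-vector cells, a log2 change of −0.53 ± 0.04 (SE) with an adjusted p of 9.36e-05 by limma. Trim37 gave 2465, 2588 and 2858 in IRF7 cells, against 3583, 2972 and 3264 in base-vector cells, a change of −0.51 ± 0.04 with an adjusted p of 0.000184 by limma. The groups did not overlap in either gene. The Trim37 call depended on the probe: further probes changed by −0.08 ± 0.03 and 0.04 ± 0.23, neither past the threshold, and the mean of its kept probes was −0.19 with an adjusted p of 0.115 by limma.

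**Figure D4:**
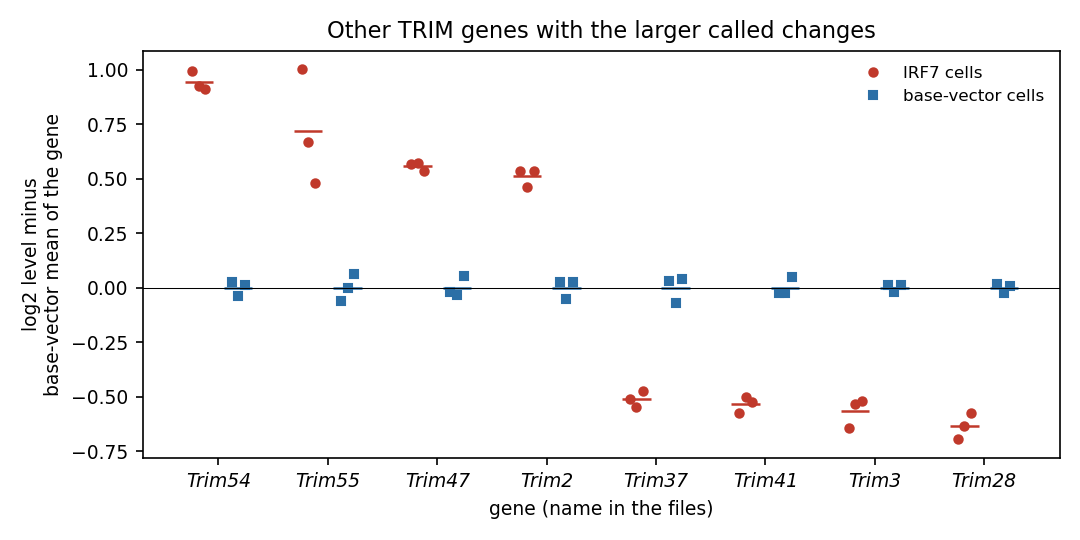
Log2 level of each array minus the base-vector mean of the gene (vertical axis) for the 8 other TRIM genes past the threshold by at least 0.5, with red circles for the 3 IRF7 arrays, blue squares for the 3 base-vector arrays and short lines for group means. Means of the 4 genes that rose lie at 0.51 to 0.94 and of the 4 that fell at −0.64 to −0.51.

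The remaining 10 calls among the other members were under 0.5. Trim39, a PRY-SPRY ligase, and Trim13, a ligase of the endoplasmic reticulum membrane, rose by 0.29 ± 0.04 and 0.24 ± 0.04 (SE). Trim62, a PRY-SPRY protein of epithelial polarity, changed by −0.44 ± 0.06, Trim68 on chromosome 7 by −0.37 ± 0.04 and the membrane protein Trim59 by −0.22 ± 0.04. Without scaling between arrays these 3 falls no longer passed, at −0.24, −0.17 and −0.017 (adjusted p 0.102, 0.156 and 0.894 by limma). With scaling to the array median Trim13 and Trim59 did not pass (adjusted p 0.150 and 0.0670 by limma). A further 5 falls were under 0.2 in size and turned positive when arrays were not scaled: Trim11 at −0.18, Trim44, which lacks a RING finger, at −0.15, Trim33, a corepressor that binds SMAD proteins, at −0.14, Trim32, an NHL-domain ligase mutated in a human muscular dystrophy, at −0.14, and Trim35 at −0.08. Trim35 lay at the threshold with an adjusted p of 0.0497 by limma. Without scaling these genes were at 0.023, 0.049, 0.058, 0.065 and 0.12, in the same order.

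The structural classes of the other members held few tested genes each, and a direction of a class was not tested. Their counts stand beside 31.7% of all tested genes rising and 29.1% falling. Trim32 and Trim33, named below, turned positive without scaling between arrays, as given above. Both tested muscle RING finger genes rose, as given above. The 3 tested NHL genes all passed, Trim2 rising and Trim3 and Trim32 falling. In the PHD and bromodomain class, transcriptional cofactors that read histone marks, Trim28 and Trim33 fell, Trim24 was at −0.08 and did not pass, and Trim66 was well above background on base-vector replicate 1 alone and was not tested. Of 9 tested PRY-SPRY members outside the interferon-linked list, 2 rose and 5 fell, and Trim27 at 0.00 and Trim65 at −0.06 did not pass. Neither Trim46 (0.14) nor Trim67 (−0.45 ± 0.36, SE), of the fibronectin class of microtubule-linked proteins, passed, and Trim67 was well above background on 1 IRF7 array and 2 base-vector arrays. Trim8 (−0.03), Trim16 (−0.07), Trim23 (−0.11) and Trim45 (0.18) did not pass either. Trim46 and Trim45 rested on base-vector replicate 1, and without it they changed by 0.32 and 0.41 and passed (adjusted p 0.00371 and 0.0269 by limma). With the slide as a fixed block Trim46 passed in the opposite direction, at −0.21 (adjusted p 0.0394 by limma), so it has no settled direction, and Trim45 was at −0.29 (adjusted p 0.157). Without IRF7 replicate 3 Trim67 changed by −0.80 (adjusted p 0.0411).

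On the dim side, 13 members were well above background on no array. They were Trim7, Trim10, Trim15, Trim17, Trim29, Trim31, Trim36, Trim42, Trim50, Trim52, Trim60, Trim61 and Trim63, none of them on the interferon-linked list. Their processed signals ran from 5.84 (Trim31) to 22.8 (Trim36) in IRF7 cells and from 6.64 (Trim31) to 35.8 (Trim36) in base-vector cells. Trim9 was well above background on 1 IRF7 array alone and was not tested.

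For 20 members at least 2 probes were bright enough to test, and their changes could be set side by side. In 14 of the 20 all probes had the same sign, and in 13 all had the same call. The genes without a single call were Trim6, Trim16, Trim26, Trim37, Trim39, Trim45 and Trim59. Trim39 had probes called in opposite directions: 0.29 ± 0.04, 0.37 ± 0.05 and, matched to another transcript record, −0.17 ± 0.03 (SE), with another at 0.24 ± 0.14 that did not pass. Trim45 changed by −0.48 ± 0.03 on its second probe, which passed, while the brightest gave 0.18 ± 0.22.

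**Figure D5:**
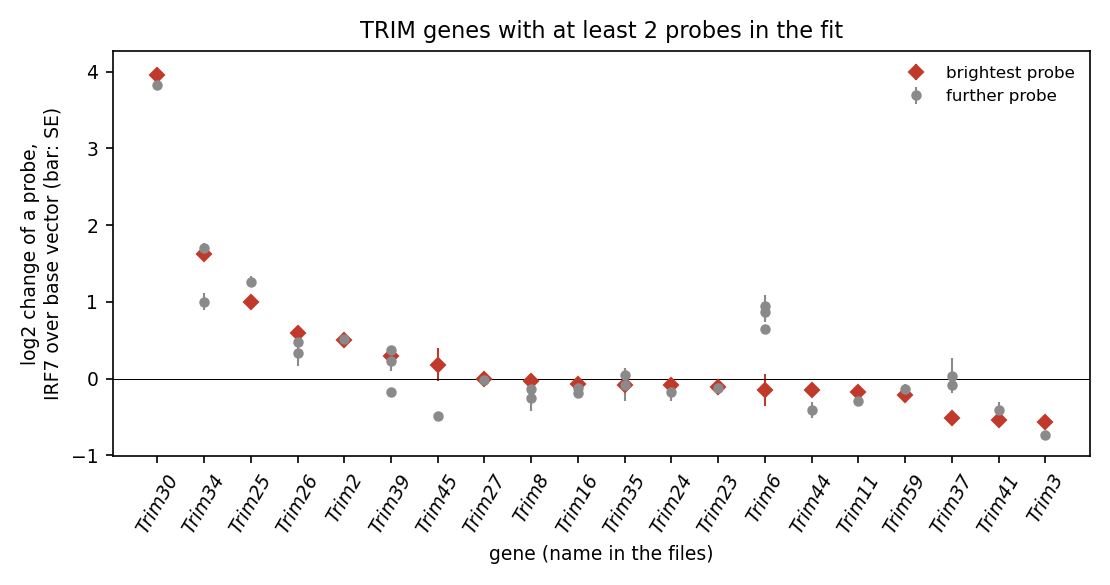
Log2 change of every tested probe, IRF7 over base vector (vertical axis, bars are SE), for the 20 TRIM genes with at least 2 such probes, with the brightest probe as a red diamond and further probes as grey circles. The probes of Trim30 stand at 3.96 and 3.83, while those of Trim6 run from −0.15 to 0.94 and those of Trim37 from −0.51 to 0.04.

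Genes that work with TRIM proteins were read from lists of relatives, ubiquitin enzymes and signalling partners, whose counts stand beside 31.7% of all tested genes rising and 29.1% falling. Of 5 tested relatives with the TRIM architecture or part of it but another name, 3 rose and 2 fell. Pml, the core of nuclear bodies, gave 7325, 8081 and 8541 in IRF7 cells, against 2888, 2677 and 2794 in base-vector cells, a log2 change of 1.32 ± 0.04 (SE). Mid1, a microtubule-bound ligase, gave 1294, 1602 and 1429 in IRF7 cells, against 5642, 6438 and 4055 in base-vector cells, a change of −2.08 ± 0.18. In both the groups were far apart. Fsd1l rose by 0.96 ± 0.18, and Rnf135, a ligase of RIG-I, changed by −0.43 ± 0.03 and fell.

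Of 15 ubiquitin enzymes, all tested, 11 passed (73.3%, against 60.8% of all tested genes), of which 8 rose and 3 fell. Ube2l6, the E2 enzyme that carries the ubiquitin-like protein ISG15, gave 1461, 1499.6 and 1593 in IRF7 cells, against 343, 291 and 316 in base-vector cells, a log2 change of 2.06 ± 0.04 (SE). The next by p were smaller: Ube2e3 at −0.59 ± 0.05, Ube2v2 at 0.39 ± 0.04 and Ube2e1 at 0.35 ± 0.04. Among 15 signalling partners 66.7% passed, also near that share, with 7 rising, 3 falling and 5 not past the threshold. Isg15 rose by 2.75 ± 0.03, Ddx58, which encodes the Trim25 target RIG-I, by 2.47 ± 0.09, and Ifi35 by 1.76 ± 0.03. Irf3 on chromosome 7 changed by −0.70 ± 0.03 and fell. The medians of the ubiquitin enzymes and partners were 0.18 and 0.12, beside 0.03 over all tested genes.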

How the data were processed

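Sample titles gave the groups and the replicate numbers. The deposited files hold, per the file headers, a linear background-subtracted intensity (processed signal) for every spot, with no scaling between arrays. The submitters' processing notes name Agilent Feature Extraction 9.5.3.1. The deposited value table held the same intensity (largest difference 0). Of 45018 spots, 1639 controls and 111 to 121 marked as non-uniform or outliers per array were left out. Spots of a probe were averaged (41174 probes). The level was log2 of the deposited intensity minus each array's 75th percentile. Genes were kept if well above background on at least 3 arrays and compared with limma 3.58.1 (lmFit, eBayes, R 4.3.3) over all 6 arrays, without a block, with Benjamini-Hochberg adjustment at 0.05 (4 residual and 1.65 prior degrees of freedom). The script was tested on simulated data. Members and lists were chosen with earlier results of these data known. Values on every array are given for interferon-linked members and for other members past the threshold by at least 0.5 without overlap, and up to 4 genes of each partner list are named by smallest p. Trim6 probe sequences, and values of array-dependent genes, were added after their values were seen. Bounds set the bright group's mean against the higher, per array, of the probe's own signal and the lowest signal well above background. Names such as Trim30a and promoters come from RefSeq tables (GRCm38.p6), and 3 members carry another name there. Alternatives covered background correction, scaling, filter, probe rule, gene names, variance model, slide, replicate number, list and each array left out. The number of arrays limits the precision.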

Additional observations from a re-analysis of the deposited data

How the results depend on the processing

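Across 21 alternatives, 11 of 14 rises and 3 of 12 falls (Trim28, Trim3 and Trim41) kept their call in all, as did 7 of the 8 interferon-linked rises, Trim12 being the exception. The median log2 change of interferon-linked members was 0.99 in the report. It was 0.92 with normexp, 0.94 with quantile normalization, 0.94 with scaling to the array median, 1.19 without scaling and 0.91 with a wider list. The wider list, which counts more members as interferon-linked, held 10 tested genes, of which 8 rose and 1 fell. Of all tested genes 31.7% rose and 29.1% fell. The median of the other members, −0.08 in the report, was −0.12 with quantile normalization, −0.12 with the array median, 0.12 without scaling, −0.16 with no filter, −0.14 as the mean of kept probes, and −0.13 both with the slide as a fixed block and within slide 1. TRIM falls numbered 6 with the array median and 4 without scaling, against 12. Without scaling the median of all genes was 0.23, and 79.1% of all calls were rises, against 52.1%. Trim32 (0.065), Trim44 (0.049), Trim11 (0.023), Trim33 (0.058) and Trim35 (0.12) then turned positive. With no filter 27962 genes were tested and 14599 were called (52.2%), against 9451 of 15541 (60.8%). Of the calls with no filter 32.5% were rises, against 52.1%, and the median of all genes was −0.12. The causes of these shifts were not tested.

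Leaving out 1 array at a time gave 8289 to 9143 genes called, 14 to 16 TRIM rises, 10 to 12 TRIM falls, 8 interferon-linked rises each time, and medians of 0.97 to 0.99 for interferon-linked and −0.11 to −0.07 for other members. With the replicate number as a block 9771 genes were called, with 14 TRIM rises, 11 TRIM falls, 8 interferon-linked rises and medians of 0.99 and −0.08. Trim35 alone lost its call among members (adjusted p 0.0664 by limma). Same-numbered arrays correlated in their deviations at 0.04 to 0.23, not all over 0.1, and each of the 6 correlated best with its own number, a hint from the data and not from the design. Fitting every kept probe was chosen after seeing the data. The 13 members near background have no measured change.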
